A study of Mus musculus with 6 samples.

Results

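Cemip and 7 other genes of hyaluronan turnover were followed in mouse angiosarcoma cells after transfection with an miR-497 mimic. The 8 genes (Cemip, Has1, Has2, Has3, Hyal1, Hyal2, Cd44 and Hmmr) were taken by symbol from a table of 55401 mouse genes. Cemip was singled out for its rise in this same comparison, and the other 7 were added for their role in making, cutting or binding hyaluronan. The differences between groups are therefore given for these 8 genes as a description, with a standard error and without a p-value. It is also stated which of them passed the threshold used for all genes, again only as a description.

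The cells were of the line ADC106, grown from a mouse angiosarcoma, a cancer of the endothelium. One group of 3 libraries, labelled WT for genotype, came from cells given the NC mimic. The other group of 3 libraries, labelled miR-497 overexpression, came from cells given the miR-497 mimic. Both mimics were used at 12.5 nM, and RNA was taken 3 days after transfection. A mimic is a short synthetic duplex that loads a microRNA strand into Argonaute proteins. All libraries come from 1 line, and the labels do not say whether they came from separate cultures, so p-values measure only the spread between these libraries, which may be technical.

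Hyaluronan is a long sugar chain of the matrix around cells. Synthases in the plasma membrane (Has1, Has2 and Has3) build it from nucleotide sugars. Surface and secreted enzymes, among them Cemip and Hyal2, cut it into shorter chains, which lysosomal enzymes such as Hyal1 degrade. Cd44 and Hmmr bind hyaluronan, and long and short chains are known for different effects on endothelial cells.

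Total counts per library ranged from 25777676 to 36159499. Of the 12 endothelial markers examined, all averaged at least 1 CPM (normalised read count, scaled to a common library total) in NC libraries. Their sum lay at 9969 to 10679 CPM with NC and 9647 to 10141 CPM with miR-497. Single markers moved both ways within that sum: 7 were called higher, among them Emcn (373 to 764 CPM). Another 4 were called lower, among them Pecam1 (3554 to 2471 CPM). Among markers of other cells, 0 of 4 epithelial genes and 2 of 6 leukocyte genes reached 1 CPM. The leukocyte marker Cd3e was at 0 in all libraries and Ptprc at 0.156 ± 0.0403 CPM with NC (SD, n = 3). Summed leukocyte markers lay at 9.34 to 9.71 CPM with NC and 15.7 to 20.97 CPM with miR-497. In that sum the macrophage gene Cd68 went from 8.25 to 17.5 CPM, while Csf1r (1.06 and 0.909 CPM) was not called and Ptprc was at 0.185 CPM with miR-497. Summed fibroblast and mural markers, of which 5 of 7 reached 1 CPM and Lum was at 0, lay at 307 to 326 CPM with NC and 451 to 547 CPM with miR-497. Of these, Col1a1 and Col1a2 were called higher (log2 fold changes 0.84 and 1.15), Pdgfrb and Thy1 lower (-0.37 and -0.47), and Pdgfra was not called. Mitochondrially encoded genes took 2.03% to 2.15% of the counts with NC and 2.94% to 3.77% with miR-497. The part of these shifts in the results below was not tested.

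The guide strand of miR-497 pairs with transcripts through its seed, bases 2 to 8, shown here in capitals within the mature mouse sequence (RefSeq, GRCm38.p6). It has the same seed as miR-195a-5p.
mmu-miR-497a-5p: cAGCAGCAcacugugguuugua
mmu-miR-195a-5p: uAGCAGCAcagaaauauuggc

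Sites for this seed were searched on the transcript strand in the longest 3' UTR of each gene. A site was TGCTGCT (7mer-m8), GCTGCTA (7mer-A1) or both together (8mer), and the shared core GCTGCT alone was recorded as a 6mer. Sites were found in 4 of the 8 genes: Has2, Has3, Hyal1 and Hmmr. By comparison 23.4% of 21022 mouse genes with a 3' UTR hold at least 1 site. The median longest 3' UTR of these genes is 960 bases. Apart from Has1 (301 bases), the members have from 1444 (Hmmr) to 4074 bases (Has3). The shares were not matched for length, and a longer 3' UTR has more room for a match. None of the 8 genes held an 8mer, which 4.05% of these genes have.

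The matched stretches are shown 5′ to 3′ with the site in capitals, because Has2 and Hmmr were lower with miR-497 and Has3 is the other synthase with a site. The site of Has2 starts at base 127 of its 3' UTR and that of Has3 at base 1440. In Hmmr a pair of 7mer-m8 sites overlap from base 909 to base 918.
Has2, chr15:56667516-56667542, minus strand: gacatatcacTGCTGCTgggacttgaa
Has3, chr8:106880258-106880284, plus strand: cacctccattTGCTGCTtcagtccaga
Hmmr, chr11:40701911-40701940, minus strand: tgtactccacTGCTGCTGCTgttcttggta

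Cemip, whose 3' UTR of 2764 bases is longer than that of Has2 (2032 bases) or Hmmr (1444 bases), held only the 6mer core, in 2 places. Its transmembrane paralog Cemip2, also known as Tmem2, is shown beside it because it held 2 sites of the 7mer-m8 kind in 2009 bases.
Cemip, chr7:83934017-83934042, minus strand: gtgggcatggGCTGCTcatgactgtg
Cemip, chr7:83933596-83933621, minus strand: ggatcttgcaGCTGCTgggatgtgtc
Cemip2, chr19:21857641-21857667, plus strand: ggtctcccagTGCTGCTtctactggcc
Cemip2, chr19:21857732-21857758, plus strand: ggcatcagaaTGCTGCTgtgctgccca

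The 3' UTR of Cd44 (2992 bases) had neither a site nor the 6mer, and that of Has1 (301 bases) had none either. Hyal2 held the 6mer once, in the transcript with its longest 3' UTR (1621 bases), and no match in its shortest one (308 bases). Coding sequences were searched too: Has1 had 6 sites there, Hmmr 2 and Has3 1, while Cemip, Has2, Hyal1, Hyal2 and Cd44 had none. Such coding sites occur in 35.3% of genes. A match is a run of letters and does not show that the microRNA binds there.

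**Figure D1:**
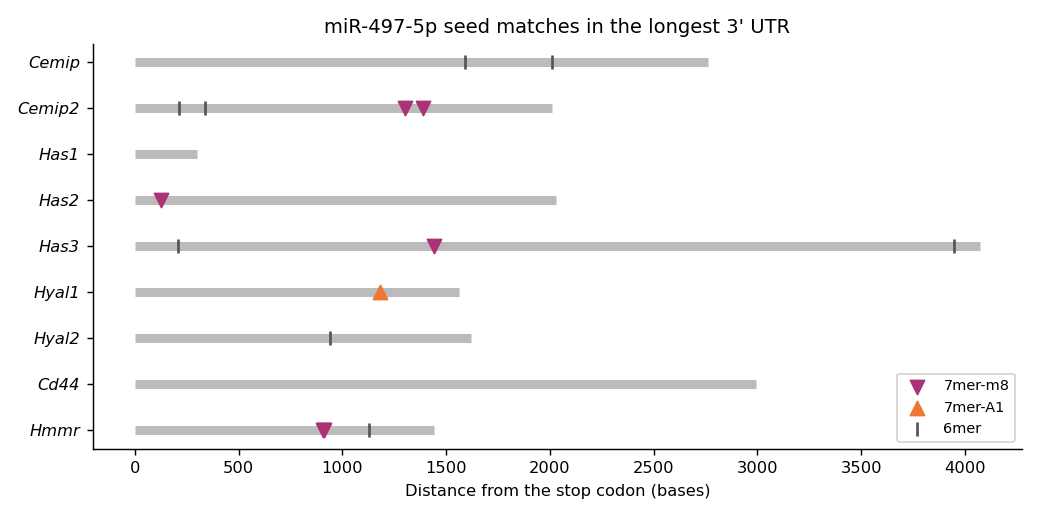
Position of seed matches for miR-497-5p in the longest annotated 3' UTR of the 8 genes and of Cemip2; the x axis is the distance from the stop codon in bases, grey bars are the 3' UTRs, downward triangles 7mer-m8 sites, upward triangles 7mer-A1 sites and ticks 6mers. Has2, Has3 and Hmmr carry 7mer-m8 sites (the pair in Hmmr overlaps and looks like 1 mark), while Cemip and Hyal2 carry 6mers only and Cd44 carries none.

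Library sizes behind CPM were scaled by TMM, which aligns the bulk of genes between libraries. A gene was called when its p from edgeR's quasi-likelihood test, adjusted by Benjamini-Hochberg over all 14661 tested genes, was under 0.05. Of the 8 genes, 7 had enough counts to be tested and 5 were called, where 49.8% of all tested genes were. Cemip, Cd44 and Hyal2 were higher with miR-497 (background 23.8% of genes), and Has2 and Hmmr were lower (background 26.0%). In the same 5 genes the 3 values of one group lay wholly apart from those of the other, as they did for 57.4% of tested genes. Has1 and Has3 overlapped between groups, and Hyal1 was listed at 0 throughout. Cemip, Cd44 and Hyal2 were thus higher without a 7mer or 8mer in the 3' UTR, and Has2 and Hmmr were lower with one, but Has3 carries a site and was not called. The shortest 3' UTR of Has3 (316 bases) lacks that site, while Has2 and Hmmr keep theirs in the shortest one. Has3 also had few counts, as given below. Since the genes were chosen with these results known, the counts support nothing beyond this description.

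**Figure D2:**
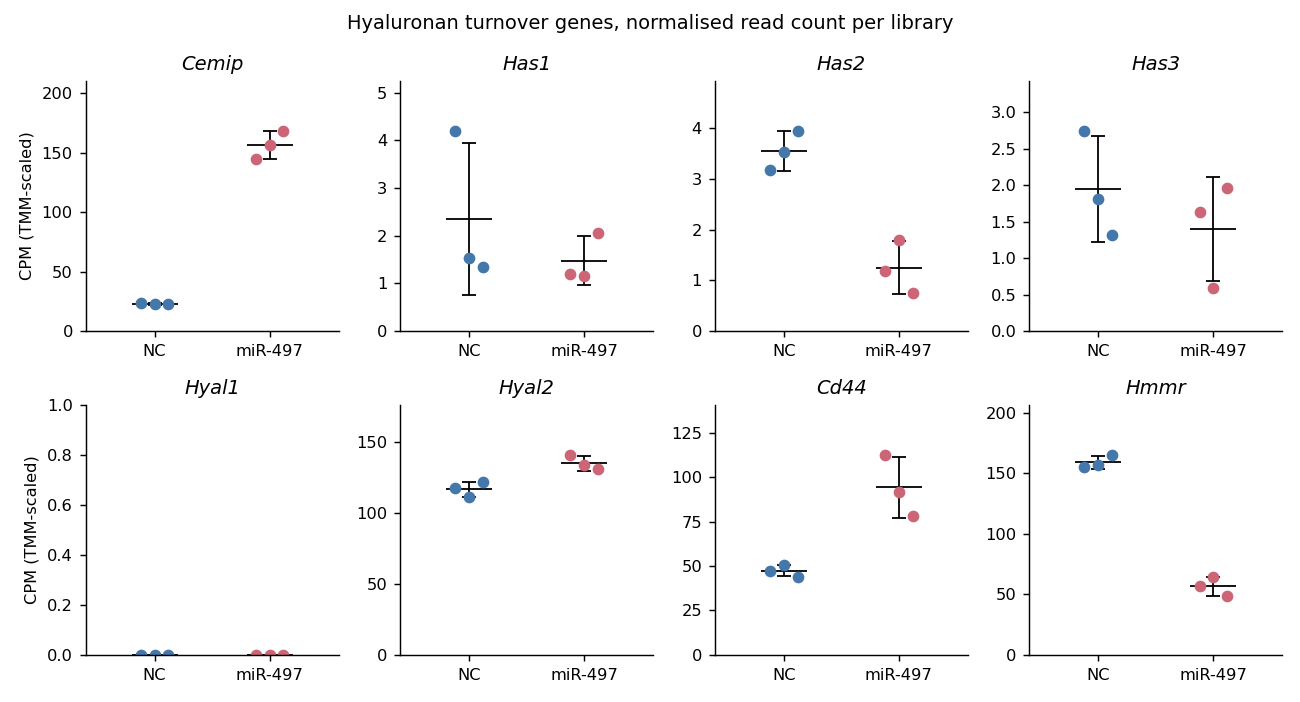
Normalised read count (CPM, y axis from 0, own scale per gene) of the 8 genes in each of the 3 NC and 3 miR-497 libraries; points are libraries, the horizontal line is the group mean and bars are SD. Cemip, Hyal2 and Cd44 lie higher and Has2 and Hmmr lower in all 3 miR-497 libraries, Has1 and Has3 overlap, and Hyal1 is at 0.

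Cemip (ENSMUSG00000052353, chr7:83932857-84086502, GRCm38, minus strand) encodes a secreted and cell-associated protein required for hyaluronan depolymerisation in fibroblasts. It had 776, 820 and 633 counts in NC libraries 1 to 3, or 23.4, 22.5 and 22.5 CPM. With miR-497 it had 3638, 4954 and 5121 counts, or 145, 156 and 168 CPM. All miR-497 values were far above all NC values, and the NC values differed from each other by about 1 CPM. The log2 fold change was 2.78 (SE 0.0677), a 6.86-fold higher level, which ranked 27 among the rises of all 14661 tested genes. In bulk RNA, more cells that express a gene and more of its RNA per cell cannot be told apart. No annotated exon of another gene overlaps Cemip.

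The synthases were all low. Has2 (ENSMUSG00000022367, chr15:56665627-56694539, minus strand), the main synthase of many mesenchymal and vascular cells, had 105, 129 and 111 counts with NC and 30, 57 and 23 with miR-497. As CPM the values were 3.17, 3.53 and 3.94 with NC and 1.19, 1.79 and 0.755 with miR-497. The groups did not overlap, and the level was 2.83-fold lower with miR-497 (log2 fold change -1.50, SE 0.303). Exons of the antisense gene Has2os cover 4.30% of its exon bases, and that gene had at most 10 counts in any library.

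Has1 (ENSMUSG00000003665, chr17:17843323-17855205, minus strand), a second synthase, had 139, 56 and 38 counts with NC and 30, 37 and 63 with miR-497. NC library 1 stood above the other 5, and the remaining values overlapped between groups. The log2 fold change was -0.68 (SE 0.407), and without NC library 1 it was 0.026. Has3 (ENSMUSG00000031910, chr8:106870242-106884566, plus strand), a synthase known for making shorter chains, had 91, 66 and 37 counts with NC and 41, 19 and 60 with miR-497. Its groups overlapped as well (log2 fold change -0.49, SE 0.401). Exons of Chtf8 on the opposite strand cover 5.52% of the exon bases of Has3. Neither Has1 nor Has3 was called, and the values within each group differed more than the group means did.

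The hyaluronidases differed in level. Hyal2 (ENSMUSG00000010047, chr9:107567945-107572779, plus strand), anchored at the cell surface, where it cuts long chains into intermediate ones, was at 117, 111 and 122 CPM in NC libraries. With miR-497 it was at 141, 134 and 130 CPM. The groups lay apart by about 9 CPM, and the shift was small, 1.16-fold higher (log2 fold change 0.21, SE 0.0544). Hyal2 lost its call when NC library 2 was left out.

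Hyal1 (ENSMUSG00000010051, chr9:107576927-107581710, plus strand), the lysosomal hyaluronidase, was listed at 0 counts in all 6 libraries. Counting error alone would let 0 counts stand for up to 3, or 0.0822 to 0.119 CPM by library. However, 51.9% of its exon bases are shared with Naa80 and Hyal3 on the same strand, and both of these were listed at 0 in all libraries too. How the authors' counting treated reads in shared exons is not given in the sources used here, so the 0 does not show that Hyal1 was silent.

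Both receptors changed, in opposite directions. Cd44 (ENSMUSG00000005087, chr2:102811141-102901665, minus strand), the principal surface receptor for hyaluronan, was at 47.4, 50.3 and 44.1 CPM with NC. With miR-497 it was at 113, 91.6 and 78.3 CPM. The lowest miR-497 library was above the highest NC library, and the miR-497 libraries were spread more widely (SD 17.3 against 3.13 CPM). The level was 1.99-fold higher (log2 fold change 0.99, SE 0.0999). Cd44 is also made by leukocytes and fibroblasts; the sums of their markers were higher with miR-497, through Cd68 and the 2 collagen genes, and other markers of both lists were not called or lower, as given above. Their part in the Cd44 values was not tested. Isoforms of Cd44 cannot be separated in gene counts.

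Hmmr (ENSMUSG00000020330, chr11:40701395-40733422, minus strand), also called RHAMM, binds hyaluronan at the surface and works at the mitotic spindle inside the cell. It was at 156, 157 and 165 CPM with NC and at 56.8, 64.5 and 48.6 CPM with miR-497. The groups lay far apart, with a level 2.81-fold lower under miR-497 (log2 fold change -1.49, SE 0.0792).

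Levels of different genes were compared per length, as CPM per kilobase of annotated exons (RPKM). In NC libraries the order was Hyal2 (35.4 ± 1.62 RPKM), Hmmr (29.3 ± 0.988), Cd44 (6.98 ± 0.462), Cemip (1.86 ± 0.0443), Has2 (0.837 ± 0.0915), Has1 (0.522 ± 0.352) and Has3 (0.307 ± 0.114; SD, n = 3 for each). Has2 and Has1, and Has1 and Has3, did not differ beyond their spread. With miR-497, Hyal2 remained first at 40.99 ± 1.61 RPKM. Next came Cd44 (13.9 ± 2.55 RPKM), Cemip (12.8 ± 0.952) and Hmmr (10.4 ± 1.47), whose ranges overlapped from each to the next. The synthases lay at 0.219 to 0.327 RPKM and overlapped each other.

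The order depends on the length used. The annotated exons of Cemip sum to 12232 bases over all its transcripts, and with its longest transcript as length Cemip was at 3.20 RPKM with NC and 21.97 RPKM with miR-497. On that scale Hmmr (40.9 RPKM) and Hyal2 (39.3 RPKM) changed places in NC, and Cemip stood above Cd44 (16.8 RPKM) with miR-497.

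**Figure D3:**
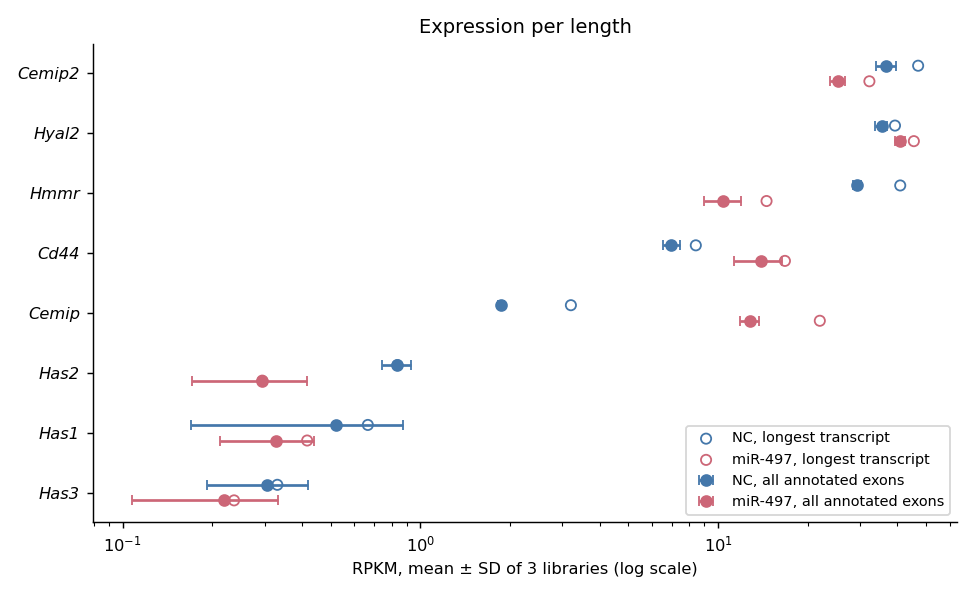
Expression per length (RPKM, log axis) of the 7 detected genes and of Cemip2, NC in blue and miR-497 in red; filled points use all annotated exons as length with SD over 3 libraries, open circles use the longest transcript. Cemip moves from 1.86 to 12.8 RPKM into the range of Cd44 and Hmmr, while the synthases stay under 1 RPKM.

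The balance within the set shifted with these levels. The summed synthases were at 2.11, 1.46 and 1.44 RPKM with NC and 0.802, 0.775 and 0.944 RPKM with miR-497. Cemip per unit of summed synthase RPKM was 0.909, 1.26 and 1.28 with NC and 14.8, 16.4 and 14.5 with miR-497. The groups lay far apart in this ratio, which only combines the values above. Its size depends on the length used, here all annotated exons. Has2 made up 35.5%, 57.2% and 64.8% of synthase RPKM with NC and 35.1%, 54.6% and 18.9% with miR-497, so its share overlapped between groups.

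The other genes of the pathway were taken from a list of 57 in 6 role groups, chosen by function with earlier results of these data known. Its counts and the p-values below are therefore a description and not support from an independent list. Of 40 that were tested, 15 were higher and 16 lower, or 37.5% and 40.0%, beside 23.8% and 26.0% of all tested genes. The same 23.8% and 26.0% are the background for the counts of each role group below. The Cd44 membrane partners (25% higher and 25% lower) lay near those shares. The list had a median log2 fold change of -0.15, beside -0.02 over all tested genes. The p-values below are from edgeR's quasi-likelihood test, adjusted over all 14661 tested genes, and n = 3 per group throughout.

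**Figure D4:**
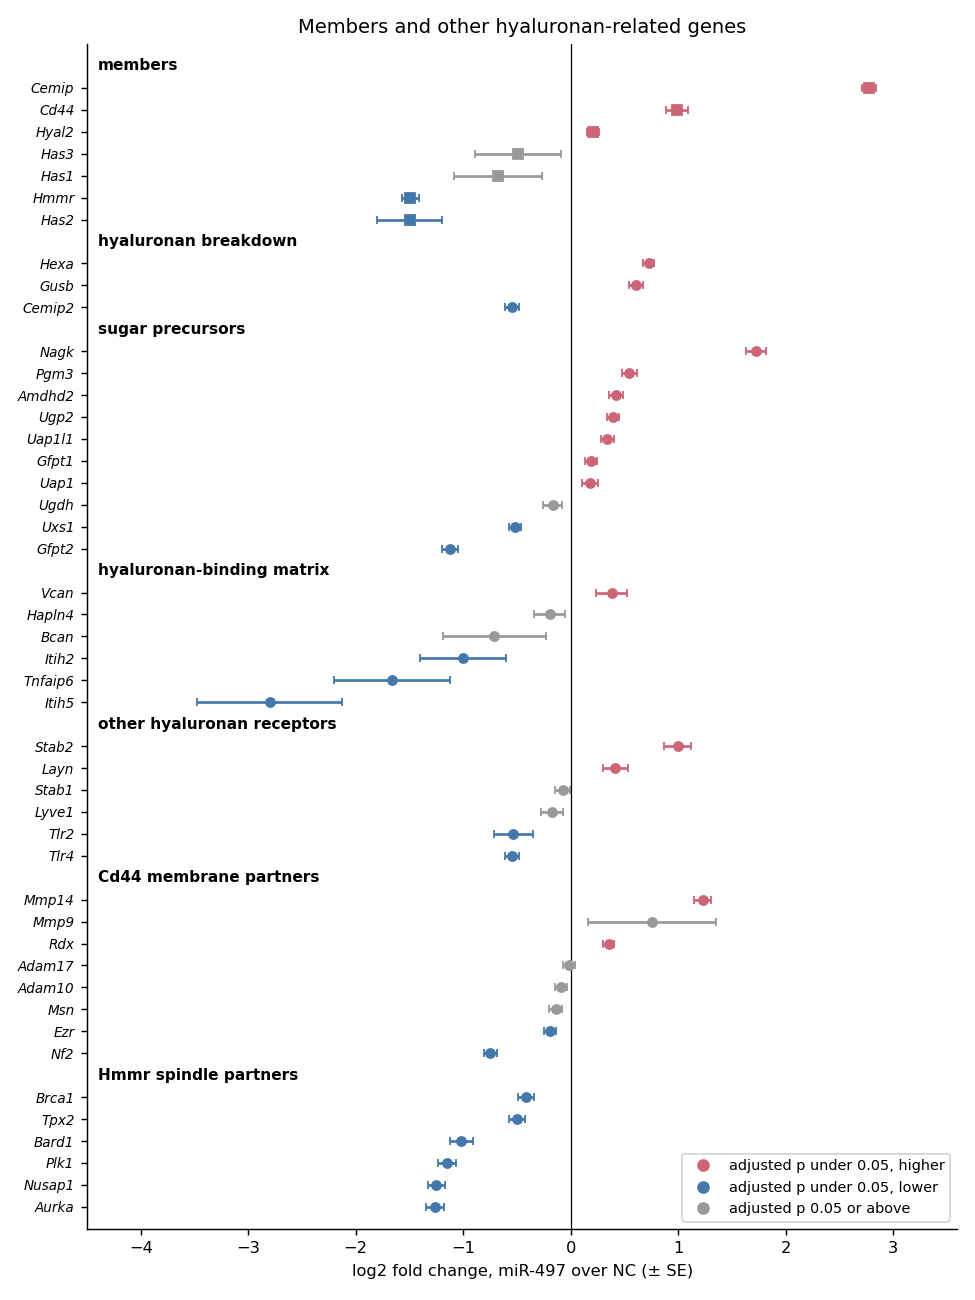
Log2 fold change of miR-497 over NC (x axis, bars are SE) for the 7 tested members (squares) and tested genes of the wider list (circles), by role, apart from 1 gene that is not reported here; red and blue mark genes higher or lower at an edgeR adjusted p under 0.05 and grey the rest. Hexa and Gusb lie right of 0, all 6 spindle partners of Hmmr lie left of it, and the remaining groups are mixed.

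Among other breakdown genes, 3 of the 4 tested were higher and 1 was lower; 5 had too few counts. Cemip2, described as a cell-surface hyaluronidase, was at 290, 311 and 339 CPM with NC and 208, 230 and 207 CPM with miR-497. All miR-497 values were below all NC values, and Cemip2 fell by 0.54 (log2 units, SE 0.0632, edgeR adjusted p = 1.9e-06). Cemip and its paralog thus went in opposite directions. Per length of all annotated exons, Cemip was 0.0509 ± 0.00502 of Cemip2 with NC and 0.507 ± 0.0495 with miR-497 (SD, n = 3). The size of this ratio depends on the length used. With the longest transcript as length, Cemip was at 3.20 and Cemip2 at 47.0 RPKM with NC. With miR-497 they were at 21.97 and 32.2 RPKM.

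Lysosomal enzymes that remove single sugars from hyaluronan fragments were among the higher genes. Hexa, a beta-hexosaminidase subunit, rose from 160 ± 5.00 to 264 ± 5.51 CPM (log2 fold change 0.73, SE 0.0508, edgeR adjusted p = 4.9e-09). Gusb, the beta-glucuronidase, rose from 88.8 ± 7.85 to 135 ± 4.01 CPM (0.61, SE 0.0628, edgeR adjusted p = 5.2e-07). The other hyaluronidases, Hyal3, Hyal4, Hyal5, Hyal6 and Spam1, had 0 to 2 counts per library.

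Of the genes of the sugar precursor group, 10 of 11 were tested, with 7 higher and 2 lower. The group holds genes that make nucleotide sugars and genes that use them or their precursors, so these counts are not of synthesis alone. Nagk, the kinase that recovers N-acetylglucosamine from degraded chains, was at 16.5, 16.6 and 14.2 CPM with NC and 57.1, 44.8 and 55.2 CPM with miR-497. It moved furthest among the 10 (log2 fold change 1.73, SE 0.0959, edgeR adjusted p = 3.2e-10), although its 3' UTR holds a 7mer-m8 site. Pgm3, a step of UDP-N-acetylglucosamine synthesis, rose by 0.55 (SE 0.0712, edgeR adjusted p = 6.7e-06), with 28.3% of its exon bases under Dop1a on the opposite strand.

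The 2 lower genes of this group act at the entry to and exit from the precursor pools. Gfpt2, one of the enzymes that commit glucose to the hexosamine pathway, fell from 55.8 ± 3.19 to 25.6 ± 1.03 CPM (log2 fold change -1.12, SE 0.0728, edgeR adjusted p = 2.2e-09). Gfpt1, another of these enzymes, was more abundant and went the other way, from 124 ± 5.88 to 141 ± 5.65 CPM (log2 fold change 0.19, SE 0.0547, edgeR adjusted p = 0.0076). No alternative was run for Gfpt1 singly. Uxs1, which turns UDP-glucuronic acid into UDP-xylose, fell by 0.51 (log2 units, SE 0.0558, edgeR adjusted p = 8.8e-07). Ugdh, which makes UDP-glucuronic acid, was the gene of this group that did not pass the threshold (log2 fold change -0.17, edgeR adjusted p = 0.13).

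Matrix proteins that bind hyaluronan were mostly scarce: 6 of 16 were tested, with 1 higher and 3 lower. Vcan, the proteoglycan versican, went from 14.6 ± 1.33 to 19.1 ± 4.86 CPM (log2 fold change 0.38, SE 0.145, edgeR adjusted p = 0.037). This call was lost without NC library 1 or 3, without miR-497 library 1 or 2, and with limma voom (adjusted p from 0.063 to 0.25). Itih2, a heavy chain that is transferred onto hyaluronan, went from 1.75 ± 0.626 to 0.878 ± 0.363 CPM (log2 fold change -1.0, SE 0.403, edgeR adjusted p = 0.049). It lost its call under 7 of 12 alternatives, among them leaving out NC library 2 or 3 or miR-497 library 1 or 3 (adjusted p from 0.0596 to 0.22). Hapln4, a link protein, did not pass (-0.19, SE 0.143, edgeR adjusted p = 0.28).

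Of the other receptors, 2 of 6 tested were higher and 2 lower. Stab2, the scavenger receptor by which sinusoidal endothelium clears hyaluronan, was at 6.09, 6.38 and 7.78 CPM with NC and 13.1, 12.9 and 14.3 CPM with miR-497, and rose by 1.00 (log2 units, SE 0.128, edgeR adjusted p = 6e-06). Layn, encoding layilin, rose by 0.42 (SE 0.116, edgeR adjusted p = 0.0065). Tlr4, an innate immune receptor that hyaluronan fragments are reported to engage, fell from 111 ± 3.70 to 75.9 ± 6.01 CPM (-0.54, SE 0.0631, edgeR adjusted p = 1.9e-06). Tlr2 fell by 0.53 (SE 0.182, edgeR adjusted p = 0.022), but not past the threshold without NC library 2 or miR-497 library 2 or 3 (adjusted p from 0.0592 to 0.11). Lyve1, the lymphatic hyaluronan receptor, was at 14.6 ± 1.06 and 12.99 ± 0.853 CPM and did not pass (edgeR adjusted p = 0.19).

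Of 8 membrane partners of Cd44, all tested, 2 were higher, 2 lower and 4 not called. Mmp14, a membrane metalloprotease that sheds Cd44, was at 27.3, 28.8 and 24.1 CPM with NC and 67.6, 59.7 and 61.0 CPM with miR-497 (log2 fold change 1.23, SE 0.0807, edgeR adjusted p = 2.4e-09). Adam10 and Adam17, also membrane metalloproteases, were more abundant than Mmp14 and were not called. Adam10 was at 393 ± 24.7 and 369 ± 17.5 CPM (edgeR adjusted p = 0.22). Adam17 was at 160 ± 6.22 and 158 ± 6.80 CPM (edgeR adjusted p = 0.82). The linkers between Cd44 and actin were mixed. Msn (moesin), the most abundant of them, was at 1176 ± 82.7 and 1068 ± 53.1 CPM and was not called (edgeR adjusted p = 0.078). Rdx (radixin) rose by 0.36 (SE 0.0517, edgeR adjusted p = 2.1e-05). Ezr (ezrin) fell by 0.19 (log2 units, SE 0.0557, edgeR adjusted p = 0.0093), a call lost without NC library 2 or 3 (adjusted p 0.0651 and 0.0803). Nf2, encoding merlin, which competes for the Cd44 tail, fell from 173 ± 3.16 to 103 ± 8.91 CPM (-0.75, SE 0.0603, edgeR adjusted p = 2.8e-08).

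All 6 spindle partners of Hmmr were lower, where 26.0% of all tested genes were, with a median log2 fold change of -1.08. Nusap1, a microtubule-binding protein of the spindle, fell from 52.2 ± 1.10 to 21.95 ± 1.91 CPM (-1.25, SE 0.0767, edgeR adjusted p = 1.1e-09). The mitotic kinase Aurka was at 72.7, 79.1 and 79.3 CPM with NC and 33.0, 35.3 and 27.8 CPM with miR-497 (-1.27, SE 0.0825, edgeR adjusted p = 2.2e-09). Plk1, a further mitotic kinase, fell by 1.15 (log2 units, SE 0.0849, edgeR adjusted p = 9.8e-09), and Bard1, the partner of Brca1, fell by 1.02 (SE 0.105, edgeR adjusted p = 5.3e-07). Hmmr, at -1.49, lay below each of them, a difference that was not tested.

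Seed sites were counted in the 40 tested genes of the list as well. Of 9 genes with a site, 6 were lower and 2 higher (median log2 fold change -0.54). Of 31 genes without one, 10 were lower and 13 higher (median -0.07). The lower genes with a site included Aurka, Bard1 and Nusap1 of the spindle group. All 6 genes of that group were lower, also those without a site such as Plk1, so the split by site is not separate from the split by role. Over all tested genes whose best match was a 7mer-m8, 39.2% were lower and 18.5% higher, and over those without any match 21.8% were lower and 28.8% higher. For a best match of an 8mer the shares were 49.9% and 12.8%, for a 7mer-A1 39.5% and 24.2%, and for a 6mer 28.8% and 26.7%. The list was split otherwise: any 7mer or 8mer counted as a site, and genes with only a 6mer as without one.

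Genes that moved like Cemip were then sought among 10330 expressed genes (mean log2 CPM of at least 2). Likeness was the root mean square difference between the log2 CPM of a gene and that of Cemip over the 6 libraries, each centred on its own mean, so that 0 is the same profile. The nearest were Mras, a Ras-like GTPase (0.16), Cryab, a small heat shock protein (0.20), Cd24a, a surface glycoprotein (0.28), Rnase4, a secreted ribonuclease (0.30), and AC132253.9, a gene known by a clone name (0.34). Mras went from 2.41 ± 0.204 to 14.1 ± 0.444 CPM, and Cd24a from 4.61 ± 0.477 to 23.2 ± 2.48 CPM (SD, n = 3). All 5 were separated between groups as Cemip was, which follows from choosing them for likeness to Cemip. The choice uses the same comparison, so the values of these 5 genes are a description. A Pearson correlation with Cemip above 0.95 was found for 1498 genes. Exons of Hspb2 on the opposite strand cover 17.0% of Cryab, and exons of Ang on the same strand cover 13.4% of Rnase4.

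**Figure D5:**
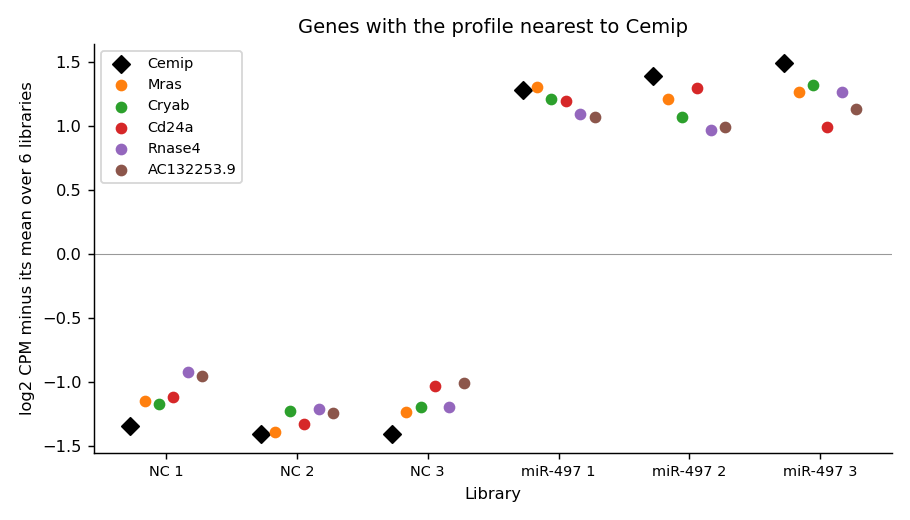
Log2 CPM of Cemip (black diamonds) and of the 5 genes with the nearest profile, each minus its own mean over the 6 libraries (y axis), for every library (x axis). NC values lie between -1.41 and -0.92 and miR-497 values between 0.96 and 1.49 for these 6 genes.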

How the data were processed

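Poly(A)-enriched RNA was sequenced from 3 NC and 3 miR-497 libraries of ADC106 cells. The deposited values are raw read counts per Ensembl gene, not normalized by the authors. The submitters' processing notes name STAR 2.5.4b, featureCounts, Subread 1.6.1, edgeR 3.32.1 and GRCm38; strand setting, annotation release and treatment of shared reads are not given in the sources used here. Symbols, exons and 3' UTRs came from GENCODE M21 (GRCm38), which matched 55141 of 55401 identifiers.

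Counts were fitted with edgeR 4.0.16 in R 4.3.3 (filterByExpr defaults, TMM, quasi-likelihood F-test with group as the only term, 2-sided, Benjamini-Hochberg over all tested genes). Standard errors are the log2 fold change over the square root of F. By rule, the genes named were the 8 members and the 5 nearest to Cemip (log2 CPM, prior count 2). With these went the 4 tested genes with the smallest p per role group with a mean of at least 1 CPM. Lyve1, Ugdh, Gfpt1, Msn, Adam10, Adam17 and the genes of low or 0 count named beside them were added after their values were seen. A gene of the breakdown group and a leukocyte marker count in the totals but are not reported here. The members and lists were chosen with earlier results of these data known. Alternatives used DESeq2 1.42.0, limma 3.58.1, other scalings, filters, lengths and sites, and each library left out.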

Additional observations from a re-analysis of the deposited data

How the results depend on the processing

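Of 91 pairs of tested member and alternative fit, 89 gave the sign and call stated above. Leaving out single libraries gave log2 fold changes from -1.0 to 0.026 for Has1, reversed without NC library 1, and from 0.18 to 0.25 for Hyal2, which was not called without NC library 2. Over the same fits Has2 ran from -1.87 to -1.23 and Has3 from -0.84 to -0.12 (19 to 139 counts per library for the synthases). Of the other genes named by rule, 346 of 363 such pairs kept their call and none changed direction. These genes were chosen by small p or by likeness to Cemip in the same comparison, which favours a kept call. That count is therefore no measure of how stable calls are in general. Site counts depended on the annotation: 2 of the 8 genes had a site in the shortest 3' UTR, 0 with 8mers only and 6 with 6mers counted. Over all genes with a 3' UTR the shares were 14.6%, 4.05% and 38.5% in that order. Ranked by Pearson correlation, the 5 genes nearest to Cemip shared 0 genes with those named. The replicate numbers are shared by the groups, but same-numbered libraries did not deviate together (correlations -0.12, -0.035 and -0.13; 0 of 6 libraries correlated best with its own number). With the number as a replicate block, 3177 genes were higher and 3563 lower against 3490 and 3817. In that fit the list had 14 higher and 15 lower against 15 and 16, and Cemip was at 2.77. Of the genes named by rule, Itih2 lost its call there (edgeR adjusted p 0.0636).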

Other observations

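Some further genes of the hyaluronan list lay outside the naming rule and were picked after their values were seen. Tnfaip6, which transfers heavy chains onto hyaluronan, had 39, 49 and 33 counts in NC and 17, 14 and 2 in miR-497 libraries (log2 fold change -1.66, SE 0.538, edgeR adjusted p = 0.016). Itih5, a relative of those heavy chains, had 19, 18 and 12 counts in NC and 1, 4 and 1 in miR-497 libraries (-2.80, SE 0.673, edgeR adjusted p = 0.0023). No alternative was run for these 2 genes singly. Stab1, the scavenger receptor related to Stab2, was at 507 ± 24.6 and 481 ± 52.8 CPM (SD, n = 3) and did not pass (edgeR adjusted p = 0.41). Gnpnat1, an enzyme of UDP-N-acetylglucosamine synthesis, was listed at 0 in all 6 libraries; 81.9% of its exon bases lie under Styx on the opposite strand.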
